A study of Homo sapiens with 3 samples.

Results

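The mRNA levels of 41 genes of the unfolded protein response and of the ATF4 stress response were followed in Huh7 cells, an established human hepatoma line. The genes were chosen by their symbols, out of 19735 genes named on the arrays. They comprise 14 genes of protein folding in the endoplasmic reticulum (ER), 3 genes of ER-associated degradation, 3 stress sensors, 5 transcription factors with the feedback gene PPP1R15A, 4 further stress targets of ATF4, and 11 genes of the amino acid branch of the ATF4 response. The cells were grown in serum-containing medium and were either left untreated or exposed to chlorogenic acid (CA), a phenolic compound of plants, at 50 μM or at 100 μM for 24 h. Each group was measured on 1 one-colour Agilent array. The 3 groups share the cell line and culture medium, and the labels name no genetic change. Per the methods of the study, CA was dissolved in dimethyl sulfoxide, and that solvent served as the untreated control. The label of the untreated sample gives its treatment as none.

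The unfolded protein response begins with sensors in the ER membrane that detect misfolded protein. IRE1 (gene ERN1) splices the XBP1 mRNA, ATF6 is cut to release a transcription factor, and PERK (gene EIF2AK3) phosphorylates the translation factor eIF2α, which lowers protein synthesis while the ATF4 mRNA is translated more. XBP1 and ATF6 turn on chaperones and degradation genes, whereas ATF4, which also responds to amino acid shortage, turns on amino acid transporters, serine synthesis enzymes and the factors DDIT3 and ATF3. Hepatocytes secrete large amounts of protein, so their ER carries a heavy folding load. The array reads total mRNA of each gene and therefore shows neither XBP1 splicing nor ATF4 translation.

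With 1 array per group, no difference could be tested, and the array, its position on the slide and the treatment cannot be told apart. All differences are therefore reported as differences between these arrays. On the 3 arrays, 70.4% to 71.1% of gene spots were well above background, the call that the image software gives for a spot clearly brighter than its surroundings. Of the 10 hepatocyte markers, 8 or 9 were above background on each array. ALB and AFP were bright on all 3 arrays, the single HNF4A probe was above background only at 50 μM CA, and the TF spot was left out as an outlier on the untreated and 50 μM CA arrays. Scaled as the members were, the 8 hepatocyte markers measured had median log2 ratios against untreated of −0.13 at 50 μM CA and −0.22 at 100 μM CA. Below 0 were 6 and 7 of the 8, beside 8276 of 14700 and 8440 of 14640 genes. The part of this in the results was not tested. Of 8 markers of leukocytes, endothelium, fibroblasts and stellate cells, 6 or 7 were above background at intensities no higher than 698. LRAT was above background on no array and COL1A1 only at 100 μM CA, in a disturbed area. The summed intensity of these 8 markers, before scaling, was 1314, 1729 and 1559 on the untreated, 50 μM CA and 100 μM CA arrays. Divided by the 75th percentile of each array the sums were 1.24, 1.43 and 1.25, and their part in the results was not tested. In a bulk culture, fewer expressing cells and less RNA per cell cannot be told apart. Disturbed areas, where dim spots were bright together, covered 5.7% of spots on the 100 μM CA array and held 7 of the 87 member spots there, against none on the other arrays.

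To show promoter elements known from this response, the 250 bases before the transcription start are printed for a classical chaperone, for the member with the highest ratio and for the best known amino acid response gene. The sequences are those of RefSeq on assembly GRCh38.p14, 5′ to 3′ on the strand of the gene, with each motif match in capitals. HSPA5 lies at chr9:125241344-125241593 (minus strand), HYOU1 at chr11:119057206-119057455 (minus strand) and ASNS at chr7:97872409-97872658 (minus strand).
HSPA5: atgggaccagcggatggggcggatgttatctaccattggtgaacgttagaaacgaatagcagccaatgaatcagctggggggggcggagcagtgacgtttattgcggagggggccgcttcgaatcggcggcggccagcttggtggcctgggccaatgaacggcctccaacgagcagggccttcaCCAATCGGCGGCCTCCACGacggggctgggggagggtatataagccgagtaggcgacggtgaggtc
HYOU1: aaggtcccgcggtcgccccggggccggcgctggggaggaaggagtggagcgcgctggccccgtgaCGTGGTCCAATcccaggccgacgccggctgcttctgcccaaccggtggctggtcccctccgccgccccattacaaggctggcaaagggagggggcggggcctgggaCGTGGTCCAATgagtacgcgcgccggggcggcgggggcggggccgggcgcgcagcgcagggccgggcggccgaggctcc
ASNS: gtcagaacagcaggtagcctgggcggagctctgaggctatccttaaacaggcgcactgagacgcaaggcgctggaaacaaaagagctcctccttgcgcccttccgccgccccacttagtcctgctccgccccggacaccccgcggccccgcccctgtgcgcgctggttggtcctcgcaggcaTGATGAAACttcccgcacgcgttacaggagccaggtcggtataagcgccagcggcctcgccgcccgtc

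Windows from 250 bases before to 50 bases after the start were held for 38 of the 41 genes. PDIA3, PSPH and SHMT2 had none. The ER stress element, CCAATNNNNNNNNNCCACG on either strand, was found in 7 of these 38 genes, against 25 of all 27305 genes with a window (0.0916%). Its holders were HSPA5, HSP90B1 (at 2 places), PDIA6, CALR, CANX, CRELD2 and XBP1. The second form of the element, ATTGGNCCACG, was added to the search after the HYOU1 sequence had been seen. It was found in HYOU1 (at 2 places), SDF2L1 and HERPUD1, and in 0.0696% of all genes. The core of the C/EBP-ATF element, TGATGNAAN, was found in ATF3, ASNS, SLC3A2, SLC7A1, CHAC1 and HERPUD1, and in 4.45% of all genes. No match of one motif overlapped a match of another in the sequences shown. A match describes the letters of the window and was not measured as a bound site.

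Each array was scaled by subtracting its 75th percentile from the log2 processed signal, so that 0 marks the 75th percentile and a difference of 1 is 2-fold. A gene was represented by 1 probe, the one with the highest mean over the 3 arrays among those well above background on both arrays compared, called its brightest probe here. All 41 genes had a probe, 51 probes in total, and 40 genes were measured. The exception was ERN1. A difference of at least 1.5-fold (0.585 or more on the log2 scale) was counted as a call. The error of a ratio was formed from the errors that the image software gives per spot, as the root of their summed squares over the arrays compared. No replicate array enters it. Spot errors of a replicated probe were averaged, so that its error does not shrink with the number of spots. For most probes the error was about 0.20 on the log2 scale. The median SD of the ratio between the 10 spots of a replicated probe was 0.065 at 50 μM CA over 814 probes. At 100 μM CA it was 0.065 over 811 probes. Different probes of the same gene differed more. Among 3266 genes at 50 μM CA, the ratios of the pair of brightest probes differed by a median of 0.23, and by more than 0.79 in the top 5%.

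At 50 μM CA against untreated, 4 of the 40 measured members were at least 1.5-fold higher, namely HYOU1, PPP1R15A, ATF3 and SLC7A5, beside 4.15% of all 14700 genes. None was 1.5-fold lower, beside 2.17% of all genes. The ATF3 call came from the choice of probe. With the probe brightest on the untreated array, an alternative added after the data had been seen, ATF3 was at −0.21 and 3 members were called, beside 4.11% of all genes. At 100 μM CA against untreated, no member was 1.5-fold higher, beside 1.65% of all 14640 genes, and none was 1.5-fold lower, beside 1.54%. The split over all genes moved with the scaling, to 3.34% higher and 2.70% lower at 50 μM CA and to 1.44% and 2.04% at 100 μM CA after quantile normalization. The members called come from different arms, a chaperone, a phosphatase subunit with a transcription factor, and a transporter. The median ratio of the members was −0.06 at 50 μM CA and −0.01 at 100 μM CA, where all genes had medians of −0.04 and −0.03. Within the error of the ratio lay 21 members at 50 μM CA and 30 at 100 μM CA, a count that was not made over all genes. Within 0.2 of 0 lay 20 of the 40 members at 50 μM CA, beside 8078 of all 14700 genes. At 100 μM CA these were 30 of 40 members, beside 10491 of 14640 genes. HYOU1 and PPP1R15A exceeded the spread of 0.79 between probes of a gene at 50 μM CA, as 2.36% of all genes did, and no member exceeded the corresponding 0.66 at 100 μM CA. Both comparisons share the untreated array.

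**Figure D1:**
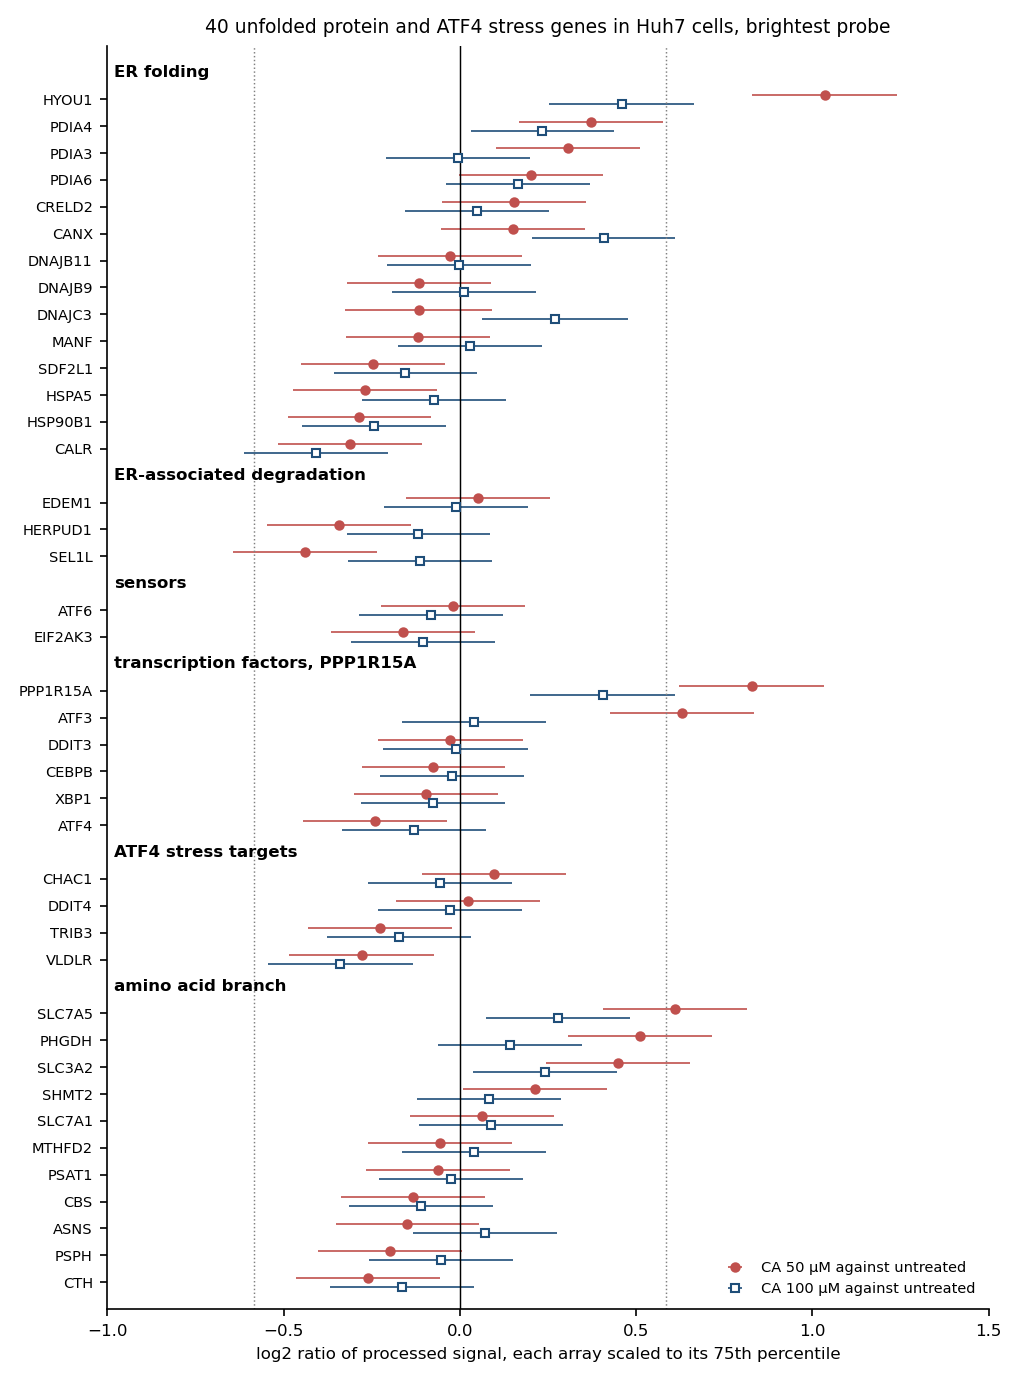
Log2 ratio of each measured member against untreated at 50 μM CA (filled circles) and 100 μM CA (open squares), grouped by role. Bars are the error of the ratio, formed from the errors that the image software gives per spot. Dotted lines mark 1.5-fold, and each point is 1 array against 1 array. HYOU1 stands apart at 1.03, followed by PPP1R15A at 0.83, and no point lies below the lower dotted line.

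Among the 14 folding genes, HYOU1 alone passed 1.5-fold. It encodes a large chaperone of the ER that serves HSPA5 as an exchange factor. HYOU1 read −1.84 on the untreated array, −0.80 at 50 μM CA and −1.38 at 100 μM CA. Both treated arrays were above the untreated one, the 50 μM CA array by more. The ratios were 1.03 and 0.46, or 2.05-fold and 1.37-fold, each with an error of 0.20. That placed HYOU1 at rank 55 of 14700 genes at 50 μM CA and at rank 416 of 14640 at 100 μM CA. HYOU1 has 1 probe, with 1 spot per array. The 2 ATTGGNCCACG matches printed above are its only ER stress elements in the window. The other holders of that form, SDF2L1 and HERPUD1, read lower at 50 μM CA, with ratios of −0.25 and −0.34.

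HSPA5 (BiP), the main ER chaperone and the usual marker of the unfolded protein response, read 1.40 untreated, 1.14 at 50 μM CA and 1.33 at 100 μM CA. Its ratios of −0.27 and −0.07 were the opposite of those of HYOU1 in sign, the second within the error. HSP90B1, the ER form of HSP90, had ratios of −0.29 and −0.24 by its brightest probe, but 0.16 and 0.11 by its other probe. CALR, a lectin chaperone that also stores calcium, had −0.31 and −0.41. After cyclic loess its ratio at the lower dose was −0.15. Its membrane-bound relative CANX had 0.15 and 0.41, and its other probe 0.00 and 0.06.

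The 3 protein disulfide isomerases among the members, which form and rearrange disulfide bonds, had ratios of 0.20 to 0.37 at 50 μM CA by their brightest probes. PDIA4 had ratios of 0.37 and 0.23, and PDIA6 had 0.20 and 0.17. PDIA3 was not settled by its probes. Its brightest probe read 3.25, 3.56 and 3.25 on the untreated, 50 μM CA and 100 μM CA arrays, a ratio of 0.31 at 50 μM CA, whereas the other probe read −0.65, −0.97 and −0.68, a ratio of −0.32. Both probes were within 0.03 of untreated at 100 μM CA. P4HB, an isomerase outside the members, is named here after its values had been seen. It had ratios of −0.28 and −0.18 by its brightest probe, but 0.51 and 0.20 by its other probe. That other probe was printed 10 times, and 1 of its spots lay in a disturbed area at 100 μM CA. The J-domain cochaperones DNAJB9, DNAJB11 and DNAJC3, which bring clients to HSPA5, lay between −0.12 and −0.03 at 50 μM CA. On the 100 μM CA array, DNAJC3 had a ratio of 0.27, but its spot there lay in a disturbed area. The spots of PDIA4 and of the second PDIA3 probe lay in such an area as well. The secreted stress proteins CRELD2 and MANF had ratios of 0.15 and −0.12 at 50 μM CA, and of 0.05 and 0.03 at 100 μM CA.

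Of the 14 folding genes, 6 were above 0 and 8 below it on the 50 μM CA array, and the median was −0.07. The higher dose had 8 above and 6 below, with a median of 0.02. Of all genes, 43.7% were above 0 at 50 μM CA and 42.3% at 100 μM CA. The 7 holders of the first ER stress element ranged from −0.31 (CALR) to 0.20 (PDIA6) at 50 μM CA, with 3 above 0 and 4 below. Their range with 100 μM CA was −0.41 (CALR) to 0.41 (CANX). Ratios of both signs were thus found among genes that carry the element.

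Of the 3 ER-associated degradation genes, 2 read below untreated at 50 μM CA, beside 8276 of all 14700 genes. At 100 μM CA all 3 did, beside 8440 of 14640 genes. SEL1L, the scaffold of the HRD1 ubiquitin ligase, had a ratio of −0.44 at 50 μM CA. Of its 3 probes, 2 gave −0.44 and −0.41 and the third 0.00. HERPUD1, another part of that complex, had −0.34 at 50 μM CA and −0.12 at 100 μM CA. EDEM1, which delivers misfolded glycoproteins for degradation, had 0.05 and −0.01, the second from a spot in a disturbed area. All 3 genes were within the error of the ratio with 100 μM CA.

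Of the 3 sensors, 2 were measured. ERN1 was not well above background on any array. EIF2AK3 (PERK) read −0.14 untreated, −0.30 at 50 μM CA and −0.24 at 100 μM CA. ATF6 read 0.62, 0.60 and 0.53 in the same order. Their ratios, −0.16 and −0.10 for EIF2AK3 and −0.02 and −0.08 for ATF6, were within the error of 0.20 at both doses.

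Of the transcription factors, XBP1, DDIT3 and CEBPB were within the error of the ratio at both doses. XBP1, the factor activated by IRE1, read 4.49, 4.39 and 4.41 on the untreated, 50 μM CA and 100 μM CA arrays. Its probe was printed 10 times, and its ratios were −0.10 and −0.08. The SD of the ratio between spots was 0.059 over 10 spots at 50 μM CA. At 100 μM CA it was 0.028 over the 8 spots left after outliers. On that array, 2 of the 10 spots lay in a disturbed area. ATF4 read 4.76, 4.52 and 4.64, with ratios of −0.24, beyond the error of 0.20, and −0.13. At 50 μM CA, 18.8% of all genes had a lower ratio than ATF4. The ratios of ATF4 depended on the scaling and were −0.09 and −0.01 after cyclic loess. DDIT3 (CHOP), which promotes cell death under lasting stress, read −1.78, −1.81 and −1.79. CEBPB, a partner of ATF4 and a main liver factor, read 2.92, 2.84 and 2.89, with an SD of 0.037 over 8 spots at 50 μM CA. For DDIT3 and CEBPB, the ratios at both doses lay between −0.08 and −0.01. The ratios of XBP1 and CEBPB had the other sign under 3 of the alternatives at each dose.

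ATF3, an early stress factor that ATF4 turns on, depended on the probe. The probe that represents it read −1.31 untreated, −0.68 at 50 μM CA and −1.27 at 100 μM CA. It stood high on the 50 μM CA array alone, with a ratio of 0.63 there and 0.04 at 100 μM CA. The next probe read −1.07, −1.27 and −1.08, the opposite order, with a ratio of −0.21 at 50 μM CA. This probe was the brighter one on the untreated and 100 μM CA arrays, so that the first probe has the highest mean only through its value at 50 μM CA. The remaining probes had ratios of −0.17 and −0.22 at that dose. The dimmest ATF3 probe lay near the floor, with intensities of 17.2 untreated and 13.5 with 100 μM CA, where it was no longer well above background. Set against the lowest signal well above background there, 14.8, it was bounded at 1.37-fold lower than untreated. The error of its ratio at 50 μM CA was 0.38, so this bound is not a firm decrease. Averaged over its probes, ATF3 was at 0.01 at 50 μM CA, so that its call rests on 1 of 4 probes.

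PPP1R15A (GADD34) encodes the subunit that directs protein phosphatase to eIF2α and thereby ends the block of translation. It read −2.68 untreated, −1.85 at 50 μM CA and −2.27 at 100 μM CA. Both treated arrays were above the untreated one. The ratios were 0.83 and 0.41, or 1.78-fold and 1.32-fold, each with an error of 0.21. It ranked 174 of 14700 genes at 50 μM CA. It has 1 probe, and that probe was outside the disturbed areas.

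The stress targets of ATF4 stayed within 1.5-fold. DDIT4 (REDD1), an inhibitor of mTORC1, had ratios of 0.02 and −0.03, with an SD between its 10 spots of 0.065 at 50 μM CA. TRIB3, a pseudokinase that dampens ATF4, had −0.23 and −0.17. CHAC1, which degrades glutathione, had 0.10 and −0.06. VLDLR, a lipoprotein receptor, had −0.28 and −0.34. The second probes of CHAC1 and VLDLR were well above background on none of the 3 arrays.

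**Figure D2:**
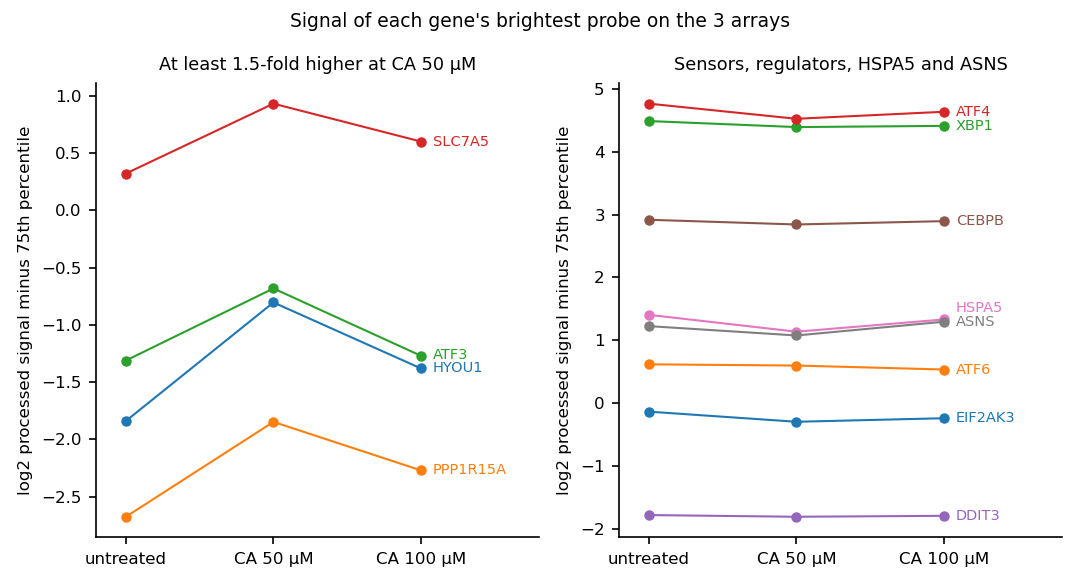
Scaled log2 processed signal (vertical axis, 0 at the 75th percentile of the array) for the brightest probe of each gene on the untreated, 50 μM CA and 100 μM CA arrays. The left panel shows the 4 members called at 50 μM CA, each highest on that array, and the right panel shows EIF2AK3, ATF6, XBP1, ATF4, DDIT3, CEBPB, HSPA5 and ASNS, whose lines stay within 0.27 of the untreated value. Heights of different genes are not comparable, since probes differ in brightness.

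**Figure D3:**
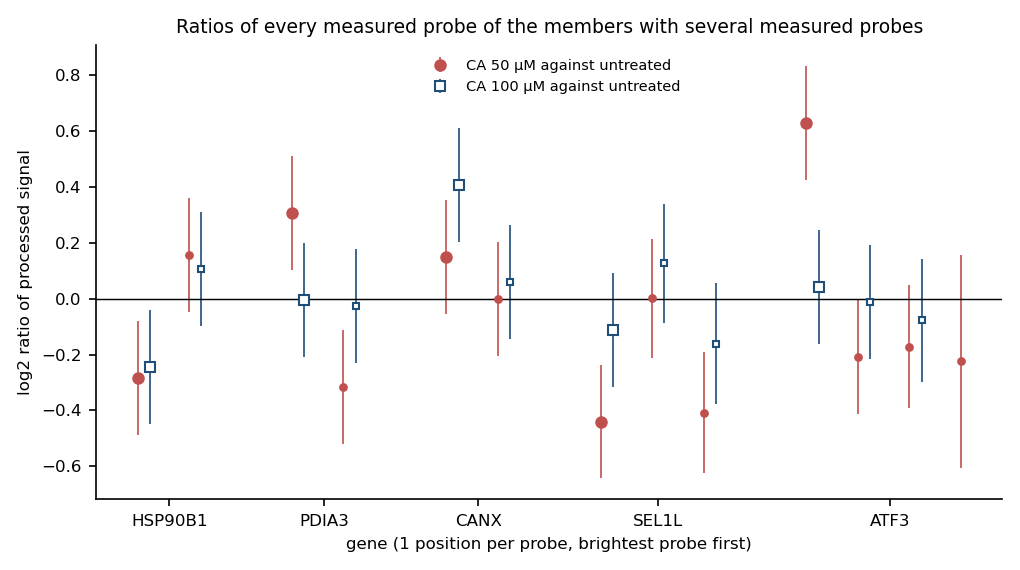
Log2 ratio against untreated for every measured probe of the 5 members with more than 1 measured probe, brightest probe first and with larger symbols, at 50 μM CA (filled circles) and 100 μM CA (open squares). Bars are the error of the ratio, formed from the errors that the image software gives per spot. The first ATF3 probe is at 0.63 at 50 μM CA and the others are below 0, and the PDIA3 probes are at 0.31 and −0.32.

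In the amino acid branch, both chains of the LAT1 transporter and the enzyme PHGDH read higher at 50 μM CA, and the other members lay closer to untreated. SLC7A5 (LAT1), which imports large neutral amino acids, read 0.32 untreated, 0.93 at 50 μM CA and 0.60 at 100 μM CA. Its ratios were 0.61 and 0.28, or 1.53-fold and 1.21-fold, from 1 probe with 1 spot per array. SLC3A2 (CD98), the heavy chain that SLC7A5 needs at the cell surface, read 0.31, 0.76 and 0.55 on the same arrays. The ratios of SLC3A2 were 0.45 and 0.24, so both chains of the transporter were above untreated on both treated arrays. SLC7A1, the carrier of arginine and lysine, had 0.06 and 0.09.

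PHGDH, which catalyses the first step of serine synthesis, read 1.40, 1.91 and 1.54. It has 1 probe with 1 spot per array, and the spot on the 50 μM CA array carried a background flag. The ratio of PHGDH at 50 μM CA, 0.51, lay just inside 1.5-fold, and the ratio at 100 μM CA was 0.14. The following enzymes of the same path did not show this. PSAT1 had −0.06 and −0.03, and PSPH had −0.20 and −0.05. SHMT2, which passes the serine carbon to folate in mitochondria, had 0.21 and 0.08, and MTHFD2, the next enzyme there, had −0.06 and 0.04. ASNS, which makes asparagine and carries the C/EBP-ATF core printed above, read 1.22 untreated, 1.08 at 50 μM CA and 1.29 at 100 μM CA, ratios of −0.15 and 0.07. CTH had −0.26 and −0.17, and CBS, which precedes it in making cysteine, had −0.13 and −0.11.

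The ER folding genes and the amino acid branch were then set side by side. At 50 μM CA the median ratio was −0.072 over the 14 folding genes and −0.057 over the 11 amino acid genes, a difference of −0.015. After quantile normalization both medians had the other sign, at 0.0072 and 0.059. At 100 μM CA the medians were 0.020 and 0.070, a difference of −0.050. Normexp background correction gave a difference of −0.15 at 50 μM CA. It measured 38 members there, without CRELD2 and PHGDH, whose spots had background flags, so the gene sets differ from those above. No test of these differences was possible. The median of all genes was −0.038 at 50 μM CA. On the 100 μM CA array, the amino acid branch was 0.10 above the median of all genes and the folding genes 0.05 above it. Both lists had 1 or a few members far above a median near 0 at 50 μM CA. HYOU1 was that member among the folding genes, and SLC7A5, PHGDH and SLC3A2 were those of the amino acid branch.

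**Figure D4:**
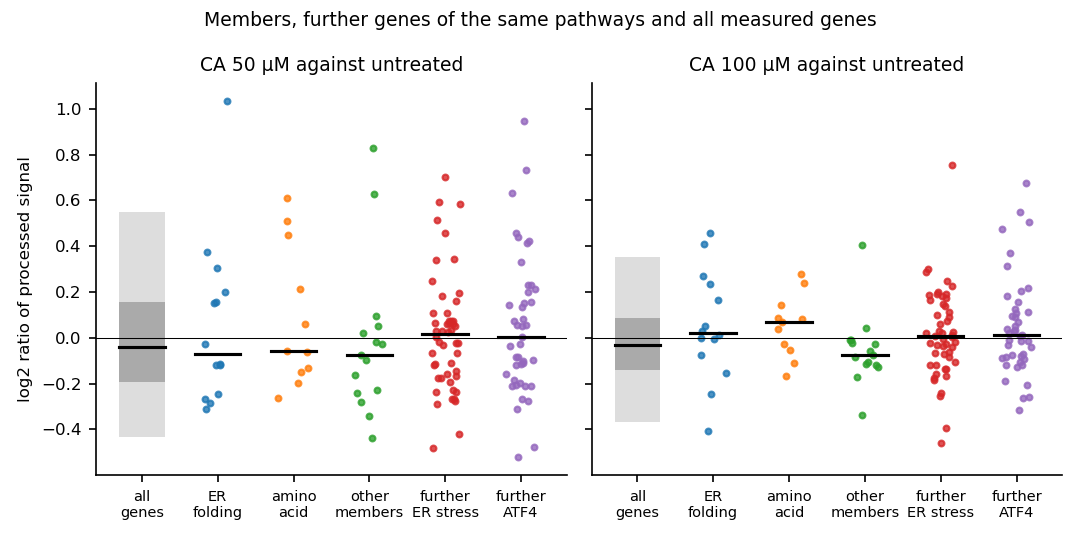
Log2 ratios against untreated at 50 μM CA (left) and 100 μM CA (right) for the ER folding genes, the amino acid branch, the other members, and 50 further ER stress and 43 further ATF4 genes, 1 point per gene with the median as a line. The first column shows all genes, with the middle 50% in dark grey and the middle 90% in light grey. The medians of all lists lie near 0, and the grey bands of all genes are narrower at 100 μM CA.

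The doses were also compared with each other. At 100 μM CA against 50 μM CA, no member was 1.5-fold higher, beside 1.4% of all 14666 genes, and 1 was 1.5-fold lower, beside 1.53%. That member was ATF3, at −0.59 by the probe that represents it and 0.19 by the next. HYOU1 had −0.58, just inside the limit, PPP1R15A −0.42, PHGDH −0.37 and SLC7A5 −0.33. Thus the members called at 50 μM CA read lower on the 100 μM CA array than on the 50 μM CA array, a comparison that shares the 50 μM CA array with their call. The highest ratio was 0.39 for DNAJC3, from a spot in a disturbed area. SEL1L had 0.33 and ASNS 0.22. The median over the members was 0.02, and over all genes 0.00.

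**Figure D5:**
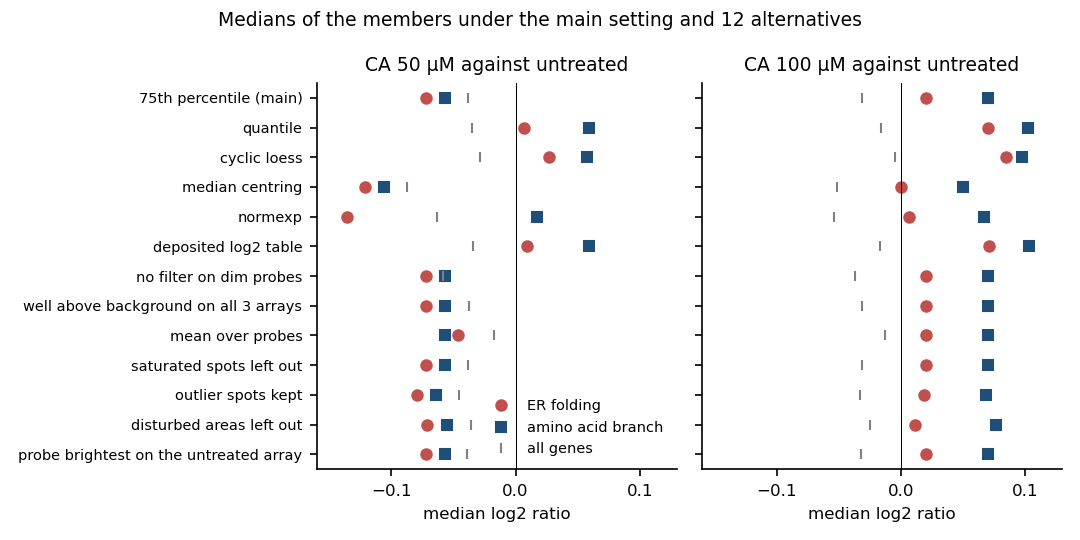
Median log2 ratio of the ER folding genes (circles), the amino acid branch (squares) and all genes (ticks) against untreated at 50 μM CA (left) and 100 μM CA (right), under the main scaling and 12 alternatives. At 50 μM CA the medians of both branches lie on either side of 0 depending on the scaling, between −0.14 and 0.06.

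Further genes of the same pathways were read from lists that leave out the members. Of 50 further ER stress genes, all measured, 2 were at least 1.5-fold higher at 50 μM CA, beside the 4.15% of all genes, and 1 at 100 μM CA, beside 1.65%. None was lower. Their medians were 0.01 at both doses. Of 46 further ATF4 and amino acid response genes, 43 were measured. Of these, 3 were 1.5-fold higher at 50 μM CA and 1 at 100 μM CA, beside the same shares of all genes. None was lower, and the medians were 0.00 and 0.01. No further gene reached 2-fold by its brightest probe. A dim second probe of PYCR1 had a ratio of 1.09 at 50 μM CA. The dimmest EDEM3 probe had 1.04 at 100 μM CA, from a spot in a disturbed area. The genes past 1.5-fold are named here after their values were seen. UGGT1, the folding sensor that returns glycoproteins to CALR and CANX, had 0.70 at 50 μM CA and 0.76 at 100 μM CA, the second from a spot in a disturbed area. SEC61A1, the pore through which proteins enter the ER, had 0.59 and 0.29. SLC1A5 and SLC1A4, carriers of small neutral amino acids, had 0.94 and 0.73 at 50 μM CA, and 0.48 and 0.68 at 100 μM CA. The SLC1A4 spot was dim, with an intensity of 17.1 on the untreated array and an error of the ratio of 0.32 at 50 μM CA. AARS1, which charges the tRNA of alanine, had 0.63 and 0.37.

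Families within these lists were formed after the values had been seen and are given as a description. The 9 amino acid transporters, members and further genes together, had a median of 0.08 at 50 μM CA and 0.15 at 100 μM CA, with 8 of 9 above 0 at each dose, where 43.7% and 42.3% of all genes were. SLC7A11, the cystine carrier, was the exception with −0.31 at 50 μM CA and −0.26 at 100 μM CA. SLC38A2, SLC6A9, SLC7A1 and SLC7A6 were above 0 by less than the error of the ratio. Their brightest probes had 0.05 to 0.08 at 50 μM CA and 0.05 to 0.15 at 100 μM CA. The second SLC38A2 probe had 0.19 and 0.56. The 12 tRNA synthetases had medians of −0.01 and 0.04. Their ratios at 50 μM CA reached from −0.52 for MARS1 to 0.63 for AARS1, and the second MARS1 probe gave 0.33. Outside these families, ERO1A had the lowest ratios of the further ER stress genes, −0.48 and −0.46. It supplies oxidising power for disulfide bonds. On the 100 μM CA array, 4 of its 10 spots lay in a disturbed area.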

How the data were processed

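Total RNA of Huh7 cells, 1 sample per group, was amplified by the authors, labelled with Cy3 and run on Agilent whole genome arrays. The 3 arrays came from 1 slide scan. Values are deposited per spot as intensity, which the authors obtained with Agilent Feature Extraction 11.0.1.1, with background subtracted and surface trends removed but with no scaling between arrays. A deposited table of log2 values, whose method is not given in the sources used here, served as an alternative. Its columns share a median of 6.22, and over 22114 probes each correlated with the log2 processed signal of its array at over 0.9999.

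Control spots and spots flagged as outliers were left out. The 75th percentile used for scaling was 1059, 1207 and 1249 on the untreated, 50 μM CA and 100 μM CA arrays. Replicate spots were averaged on the log2 scale, and a probe needed 50% or more of its spots well above background to count as such. Probes were named through RefSeq accessions and 25764 of 34110 probes found a name in the table used (GRCh38.p14). The array design was annotated on GRCh37, so no probe coordinates are given. A probe above background on 1 side was given a bound against the lowest signal well above background. An area counted as disturbed where a window of 17 rows by 7 columns held 5 or more spots, making up 25% or more of its dim spots, that were 4-fold or more brighter on 1 array. No test was possible with 1 array per group, and the number of arrays limits the precision. Groups follow the treatment label of each sample.

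The members and gene lists were chosen with earlier results of these data known. Values were given in full for the sensors, the transcription factors and PPP1R15A, HSPA5, ASNS, members at least 1.5-fold different at a dose, and members whose probes differed in sign by over 0.5. Of the other members, the highest and lowest of each role and further examples were named. The further genes were to be named from 2-fold. The alternatives were 3 other scalings (quantile, cyclic loess, median centring), normexp background correction with an offset of 50, fitted without spots with background flags, the deposited log2 table, 2 other filters on dim probes, the mean over probes, saturated spots left out, outlier spots kept, disturbed areas left out, and a 2-fold limit. The probe brightest on the untreated array was added as an alternative after the data had been seen. The steps were tested on simulated data. Software was limma 3.58.1 in R 4.3.3, and matplotlib 3.10.9, scipy 1.17.1, pandas 2.3.3 and numpy 2.4.6 in Python 3.11.15.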

Additional observations from a re-analysis of the deposited data

How the results depend on the processing

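Scaling decided the sign of the branch medians at 50 μM CA. The median of the ER folding genes, −0.072, became 0.0072 after quantile normalization, 0.027 after cyclic loess and 0.0095 in the deposited log2 table. The median of the amino acid branch, −0.057, became 0.059, 0.057 and 0.0595 under the same alternatives and 0.017 after normexp. The difference between the branches was −0.15 after normexp, in place of −0.015. Normexp measured 38 members at 50 μM CA, without CRELD2 of the folding genes and PHGDH of the amino acid branch. At 100 μM CA the ER folding median was 0.085 after cyclic loess. The number of members called at 50 μM CA was 2 after median centring (HYOU1 and PPP1R15A), beside 3.26% of all genes, and 1 at a 2-fold limit (HYOU1), beside 0.456%. It was 3 after normexp (without SLC7A5), with the mean over probes and with the probe brightest on the untreated array (both without ATF3, which reversed to −0.21 under the latter). The main count was 4, and no member was called at 100 μM CA under any alternative. The cause of these shifts was not tested.

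Over the alternatives, HYOU1 at 50 μM CA ranged from 0.84 to 1.04, PPP1R15A from 0.67 to 0.83, SLC7A5 from 0.50 (normexp) to 0.63 and HSPA5 from −0.32 to −0.23. At 50 μM CA, XBP1 ranged from −0.15 to 0.05 and CEBPB from −0.12 to 0.02. ATF3 fell to 0.01 and PDIA3 to −0.01 with the mean over probes. HSP90B1 at 100 μM CA ranged from −0.26 to 0.05. Without disturbed areas, 37 members were measured, and with no filter on dim probes 41. Saturation touched no member spot. Dim probes such as ERN1 give no level at this signal over background, and a change there was not detectable.

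No paired analysis was possible because each group has 1 array.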
